A study of Mus musculus with 8 samples.

Results

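The 10 genes described here encode transcription factors of early B-lineage identity and inhibitors of such factors: *Pax5*, *Ebf1*, *Tcf3*, *Tcf12*, *Foxo1*, *Lef1*, *Sox4*, *Id2*, *Id3* and *Bach2*. They are a list of names with no threshold on a measured value, but they were chosen with earlier results of these data known. Each symbol matched 1 Entrez identifier, and the members are 10 of the 27179 genes in the count table. All 10 passed the expression filter that left 17700 genes for testing. The study asked how loss of UPF1, an RNA helicase of nonsense-mediated mRNA decay, alters bone marrow B cell progenitors that carry a pre-arranged heavy chain gene. RNA of sorted early large pre-B (early LPre-B) and small pre-B (sPre-B) cells was sequenced after ribosomal RNA depletion, in 8 libraries, 2 for each of 4 groups. All 4 groups were Upf1 Flox/Flox, with both alleles of the gene floxed, and carried 1 copy of the heavy chain knock-in (Igh B1-8hi/+). Ctrl mice were Mb1 +/+ and cKO mice Mb1 Cre/+, so that the cKO groups alone carried Cre. Cre is driven from the Mb1 locus, which is *Cd79a*, and is active from early in the B lineage. The presence of Cre with 1 altered *Cd79a* allele and the loss of *Upf1* cannot be told apart in this design. Mice were age-matched, and both sexes were used in the study. The labels do not say which mice a library came from. The study describes its replicates in general as independent, and the 2 Ctrl libraries of each stage differed in sex-linked genes, so they were not from the same mouse. The P values below measure the spread between these libraries.

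B-lineage identity is built by factors that act in a network. The E proteins encoded by *Tcf3* (E2A) and *Tcf12* (HEB) bind E-box motifs and, with EBF1 and FOXO1, start the B cell program. PAX5 then commits cells to it, by activating B cell genes and repressing those of other lineages. The Id proteins bind E proteins and keep them from DNA. LEF1 and SOX4 are HMG-box factors known for roles in survival and expansion of pro-B cells, and BACH2 is a repressor that acts with PAX5 at the pre-BCR checkpoint and opposes plasma cell genes.

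Totals lay between 68516857 and 160426338 counts per library, and a level of 3 counts, the smallest taken as shown, corresponded to 0.0217 to 0.0426 CPM (counts scaled to a common library size with edgeR's TMM factors), which covers counting error only. Each member had at least 180 counts in every library. Replicates correlated at 0.985 to 0.989 across genes on the log2 scale. The *Upf1* count could not check the genotype, since replicates 1 and 2 had 237 and 213 CPM in the Ctrl and 244 and 258 CPM in the cKO group of early LPre-B cells, and 186 and 198 CPM in Ctrl against 282 and 293 CPM in cKO sPre-B cells, where it was called higher in cKO (Log2FC = 0.59, SE 0.10, adjusted P = 0.00245). The count is summed over the whole gene, and exons outside the deleted part also give reads. *Cd79a*, the locus that carries Cre, was lower in every cKO library, at 188 and 160 CPM against 640 and 543 CPM in Ctrl early LPre-B and at 405 and 325 against 1478 and 1602 CPM in Ctrl sPre-B cells. The loss of *Upf1* is taken from the labels and was not measured by these counts. Both Ctrl replicate 2 libraries had hardly any *Xist* and many reads of Y-linked genes, unlike the other 6 libraries, so the sexes were unevenly spread over the groups. Results that change without these 2 libraries are given with their values. The sort gates were CD43+, large by forward scatter and CD2- for early LPre-B, and CD43 low, small, CD25+ and CD2+ for sPre-B cells. The labels met their gate genes: *Cd2* was 5.45 and 5.64 CPM in Ctrl early LPre-B against 178 and 161 CPM in Ctrl sPre-B cells, and *Il2ra*, which encodes CD25, was 36.6 and 53.6 against 476 and 479 CPM. The 8 B progenitor markers were above 3 counts in all libraries, whereas the 8 T and NK cell markers summed to between 1.82 and 4.76 CPM. The 9 myeloid markers summed to between 50.4 and 356 CPM, most of it from *Itgam*, while *Cd14* had 24 counts at most. In bulk RNA, fewer cells of a type and less RNA per cell cannot be told apart. Strand was not used in counting, so reads of overlapping antisense genes cannot be separated. The annotation places such genes or others within *Pax5*, *Ebf1*, *Tcf12*, *Foxo1*, *Lef1*, *Sox4* and *Bach2*, but 0 within *Tcf3*, *Id2* and *Id3*.

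The promoters of *Foxo1*, *Sox4* and *Lef1* are shown because these genes changed strongly with stage and with genotype, and *Foxo1* and *Lef1* were the members called in the interaction of genotype and stage, narrowly (values and limits with that test). Each sequence is the 250 bases before the farthest upstream RefSeq start (build GRCm38.p6, the sequence of mm10), 5′ to 3′ on the strand of the gene. The windows are chr3:52268087-52268336 (+) for *Foxo1*, chr13:28953700-28953949 (-) for *Sox4* and chr3:131110047-131110296 (+) for *Lef1*. Capitals mark matches to motifs of the members' own families.
Foxo1: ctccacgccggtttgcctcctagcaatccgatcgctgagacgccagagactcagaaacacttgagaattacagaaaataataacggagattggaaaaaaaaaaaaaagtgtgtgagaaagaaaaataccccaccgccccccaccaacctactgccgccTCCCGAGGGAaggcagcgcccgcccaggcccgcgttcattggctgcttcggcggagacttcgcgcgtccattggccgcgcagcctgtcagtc
Sox4: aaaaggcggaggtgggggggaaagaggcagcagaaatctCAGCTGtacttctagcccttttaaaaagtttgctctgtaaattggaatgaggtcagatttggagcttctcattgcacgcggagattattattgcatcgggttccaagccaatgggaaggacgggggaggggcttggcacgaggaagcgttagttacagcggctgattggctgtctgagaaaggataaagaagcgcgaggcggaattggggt
Lef1: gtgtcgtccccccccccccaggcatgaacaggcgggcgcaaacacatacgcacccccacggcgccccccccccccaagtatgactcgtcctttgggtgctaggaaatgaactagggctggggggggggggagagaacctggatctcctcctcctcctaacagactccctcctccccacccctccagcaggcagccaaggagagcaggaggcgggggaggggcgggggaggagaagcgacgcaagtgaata
The capitals in *Foxo1* are an EBF motif, TCCCNNGGG, which matched on both strands with overlap, from 92 to 83 bases before the start. Of all 27025 promoter windows, 5.52% hold this motif on either strand, and *Foxo1* was the 1 member with it. The capitals in *Sox4* are an E box, CAGCTG, which reads the same on both strands and lies 211 to 206 bases before the start. This form was found in 12.7% of all windows and in 3 of the 10 members, the others being *Tcf12* and *Id2*. The second E-box form searched, CAGGTG or CACCTG on the other strand, occurs in 17.1% of windows. The FOXO motif GTAAACA is in 3.06%, the LEF and TCF motif CTTTGAT in 3.26% and the BACH motif TGAGTCA in 4.43% of windows, on either strand. None of these 4 strings was in the windows of the 10 members, and the *Lef1* window held none of the motifs searched. A match is a string of letters and not a measured binding site.

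**Figure D1:**
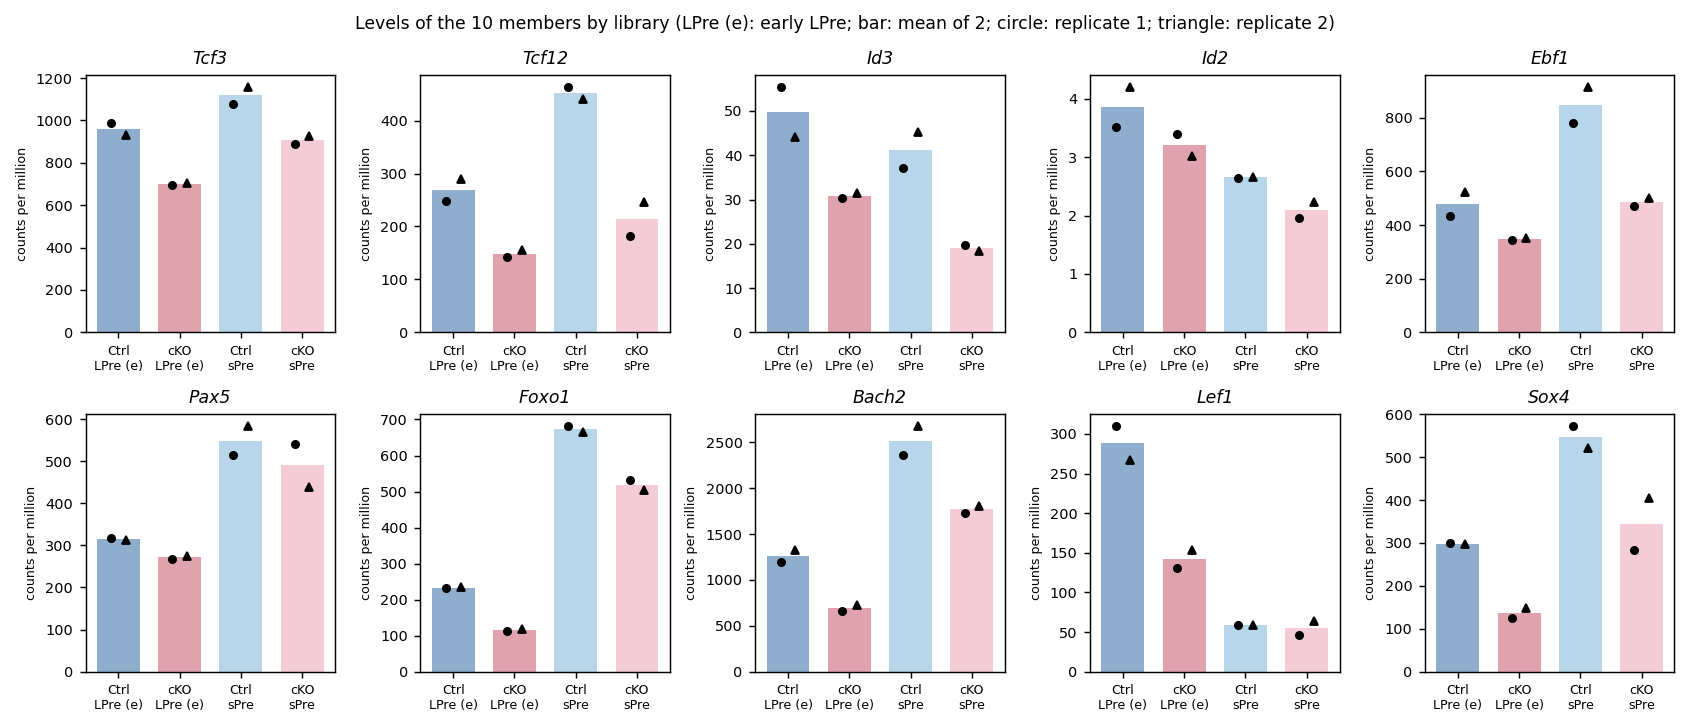
CPM (linear axis from 0) of each member in the 8 libraries, with the bar at the mean of the 2 libraries of a group and the points at replicates 1 and 2. *Lef1* was highest in early LPre-B cells, *Foxo1*, *Bach2*, *Sox4*, *Ebf1* and *Pax5* were highest in sPre-B cells, and *Id2* lay between 1.95 and 4.20 CPM in all libraries.

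Over the transition of Ctrl cells, 6 of the 10 members rose and 2 fell from the early LPre-B to the sPre-B stage (adjusted P under 0.05), where 29.1% of all genes tested were higher and 31.1% lower. In cKO cells 7 members were higher and 3 were lower in sPre-B cells, against 31.6% and 31.1% of all genes. With genotype, the members went one way: 8 of 10 were lower in cKO than in Ctrl early LPre-B cells and 6 of 10 in sPre-B cells. Of all genes, 16.9% were lower and 14.5% higher in early LPre-B cells, and 14.9% were lower and 19.8% higher in sPre-B cells. These counts leaned on single libraries: the 6 lower in sPre-B cells were 3 without cKO sPre-B replicate 1, and the 6 became 4 without cKO sPre-B replicate 2. The 7 higher with stage in cKO cells were 4 without cKO early LPre-B replicate 1 or cKO sPre-B replicate 2, and the 2 lower with stage in Ctrl cells were 1 without any 1 of the early LPre-B or Ctrl sPre-B libraries. By edgeR, with or without adjustment of P, and by DESeq2, 0 members were higher in cKO cells at either stage, and the fitted Log2FC was below 0 for all 10 at both. The median Log2FC of the members was -0.78 in early LPre-B and -0.44 in sPre-B cells, against -0.06 and 0.01 over all genes tested. The members were chosen with earlier results of these data known, so their contrast with all genes is no independent evidence. The 2 genotype comparisons use different libraries, but each shares its Ctrl libraries with the Ctrl stage comparison.

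**Figure D2:**
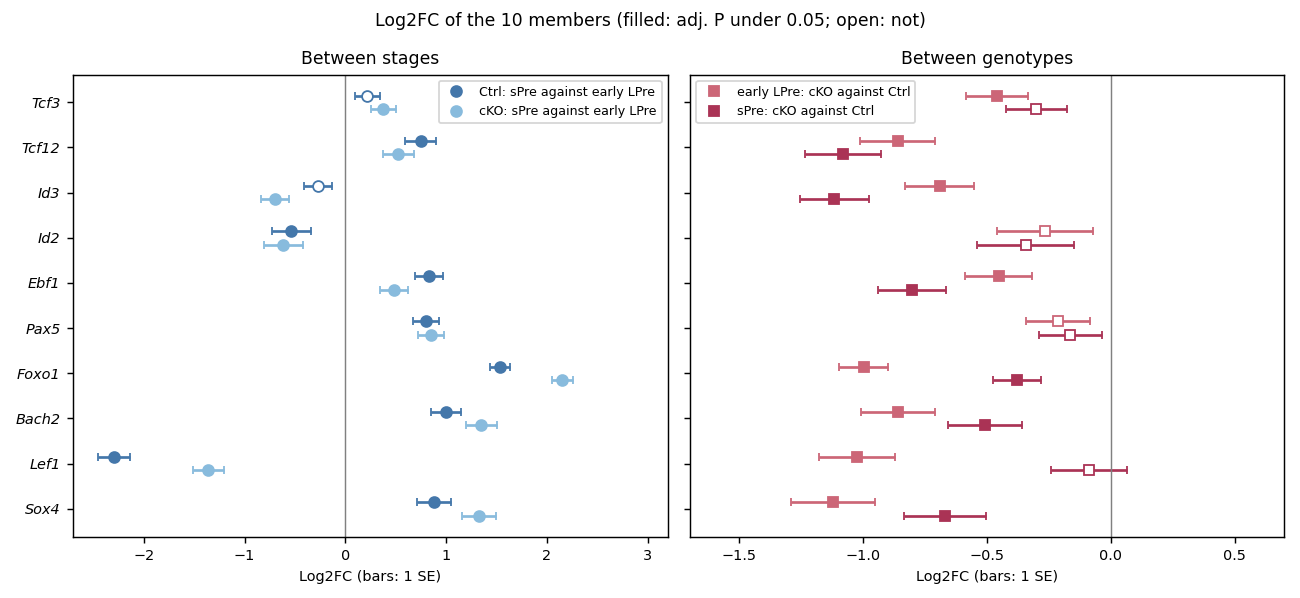
Log2FC (horizontal axis, bars 1 SE) of the 10 members between stages (left) and between genotypes (right), with filled symbols at adjusted P under 0.05. All 20 genotype values lie left of 0, and *Lef1* at -2.29 and *Foxo1* at 2.15 are the outermost stage values.

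Cell cycle genes moved with stage too. All 12 proliferation markers fell with stage in both genotypes. Their sum was 11689 and 11812 CPM in Ctrl and 7865 and 8268 CPM in cKO early LPre-B cells, then 1609 and 863 CPM in Ctrl and 1487 and 1741 CPM in cKO sPre-B cells. Most of each sum was *Mki67* and *Top2a*. With genotype, 2 of the 12 were lower in cKO and 10 not called in early LPre-B cells. In sPre-B cells 2 were higher in cKO and 10 not called. The gate genes also differed between genotypes in early LPre-B cells, where *Kit* (Log2FC = -2.51, adjusted P = 0.00387), *Il2ra* (-1.02, adjusted P = 0.00586) and *Spn*, which encodes CD43 (-0.57, adjusted P = 0.0172), were lower in cKO cells. None of these 3 was called in cKO against Ctrl sPre-B cells. The sum of the 9 myeloid markers was lower in the cKO early LPre-B libraries (50.4 and 55.7 CPM) than in the Ctrl ones (111 and 134 CPM), with 2 of 9 called lower, and it was 212 and 244 CPM in cKO against 305 and 356 CPM in Ctrl sPre-B cells, with 1 of 9 called lower (*Itgam*, -0.46). Of the 8 B progenitor markers, 4 were lower and 0 higher in cKO early LPre-B cells, and their sum was 1512 and 1557 CPM against 2998 and 2617 CPM in Ctrl. *Dntt*, which encodes the polymerase TdT of pro-B cells, fell from 272 and 240 to 26.8 and 24.8 CPM (Log2FC = -3.31, SE 0.20, adjusted P = 3.79e-05). In sPre-B cells 3 of the 8 were lower and 2 higher in cKO, with sums of 7736 and 7709 CPM in Ctrl and 4892 and 4637 CPM in cKO cells. Most of that difference was *Rag1*, at 3508 and 2964 CPM in Ctrl and 1497 and 1612 CPM in cKO cells, and *Cd79a*. The latter, the locus that carries Cre, had 1478 and 1602 CPM in Ctrl and 405 and 325 CPM in cKO cells. Of 6 markers of mature B and plasma cells, 3 were higher and 1 lower in cKO sPre-B cells, and the sum was 634 and 419 CPM against 319 and 362 CPM in Ctrl. *Fcer2a*, which encodes CD23, was 83.8 and 29.9 CPM in cKO and 6.03 and 5.33 CPM in Ctrl sPre-B cells (3.32, SE 0.44, adjusted P = 0.000735). *Cr2* (1.21) and *Ighd* (0.63) were also higher, and the plasma cell marker *Sdc1* was lower (-0.96). In early LPre-B cells 0 of these 6 were higher and 1 was lower. The 5 plasmacytoid dendritic markers summed to 4.98 and 8.06 CPM in Ctrl and 13.5 and 13.2 CPM in cKO early LPre-B, and to 23.1 and 28.3 CPM in Ctrl and 39.3 and 42.3 CPM in cKO sPre-B cells. At each stage 1 of the 5 was called higher in cKO cells, *Cox6a2* in early LPre-B (1.91, adjusted P = 0.000329; 2.04 and 2.91 CPM in Ctrl against 9.39 and 9.08 CPM in cKO) and *Ccr9* in sPre-B cells (1.5, adjusted P = 0.000699). Without a call for any other gene of the list, its median Log2FC was -0.71 in early LPre-B and 0.35 in sPre-B cells. Of 7 erythroid and platelet markers 1, the globin gene *Hbb-bs*, was called, as lower in cKO cells at both stages (-1.61 and -1.51). The part of cell cycle state, gate position, B cell stage or other cells in the values below was not tested.

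*Tcf3* encodes the E proteins E12 and E47, which open the B cell program (chromosome 10, 80409514 to 80433647, minus strand, mm10). Its level was 988 and 934 CPM in Ctrl early LPre-B, 694 and 703 in cKO early LPre-B, 1077 and 1158 in Ctrl sPre-B and 890 and 925 in cKO sPre-B cells. No 2 groups overlapped, and both cKO groups were below both Ctrl groups. *Tcf3* fell with genotype in early LPre-B cells by 0.46 on the log2 scale (SE 0.12, adjusted P = 0.0225). Its difference in sPre-B cells was -0.30 (SE 0.12, adjusted P = 0.0929), which DESeq2 called with an adjusted P of 0.00272. From early LPre- to sPre-B cells *Tcf3* rose in cKO cells (Log2FC = 0.38, SE 0.12, adjusted P = 0.0257), and in Ctrl cells the value was 0.22 (SE 0.12, adjusted P = 0.159; DESeq2 0.0233). Both *Tcf3* calls were narrow. The genotype call in early LPre-B cells was lost when either Ctrl or either cKO early LPre-B library was left out (adjusted P from 0.0537 to 0.115), and the stage call in cKO cells when any of its 4 libraries was left out (0.0805 to 0.122) or without the expression filter (0.0511).

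*Tcf12* encodes the E protein HEB, a partner of E2A in lymphoid progenitors (chromosome 9, 71842688 to 72111871, minus strand). It had 249 and 290 CPM in Ctrl early LPre-B, 142 and 155 in cKO early LPre-B, 464 and 440 in Ctrl sPre-B and 181 and 246 in cKO sPre-B cells. Every cKO library lay below every Ctrl library, whatever the stage. *Tcf12* was 1.82-fold lower in cKO early LPre-B cells (Log2FC = -0.86, SE 0.15, adjusted P = 0.00369) and 2.12-fold lower in cKO sPre-B cells (-1.08, SE 0.15, adjusted P = 0.00106). It rose with stage in Ctrl cells (0.75, SE 0.15, adjusted P = 0.00261) and in cKO cells (0.53, SE 0.15, adjusted P = 0.0145). The rise in cKO cells leaned on single libraries, since it was 0.29 (adjusted P = 0.129) without cKO sPre-B replicate 2 and 0.46 (adjusted P = 0.0866) without cKO early LPre-B replicate 1. The annotation places 11 other genes within the span of *Tcf12*, more than for any other member.

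The Id proteins counter the E proteins. *Id3* (chromosome 4, 136143497 to 136145755, plus strand) had 55.5 and 44.2 CPM in Ctrl early LPre-B, 30.3 and 31.4 in cKO early LPre-B, 37.2 and 45.3 in Ctrl sPre-B and 19.8 and 18.3 in cKO sPre-B cells. The cKO libraries lay below the Ctrl libraries at each stage, while the Ctrl libraries of the 2 stages overlapped. *Id3* fell with genotype by 0.69 in early LPre-B (SE 0.14, adjusted P = 0.00631) and by 1.12 in sPre-B cells (SE 0.14, adjusted P = 0.00058) on the log2 scale. It also fell with stage in cKO cells, by 0.70 (SE 0.14, adjusted P = 0.00223). The stage value in Ctrl cells was -0.27 (SE 0.14, adjusted P = 0.117), and -0.51 (adjusted P = 0.0131) without both Ctrl replicate 2 libraries.

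*Id2*, an inhibitor best known from innate lymphoid, NK and dendritic cells, was the rarest member (chromosome 12, 25093799 to 25097140, minus strand). Its level was 3.52 and 4.20 CPM in Ctrl early LPre-B, 3.39 and 3.02 in cKO early LPre-B, 2.65 and 2.67 in Ctrl sPre-B and 1.95 and 2.23 in cKO sPre-B cells. All 4 early LPre-B libraries were above all 4 sPre-B libraries. *Id2* fell with stage by 0.54 in Ctrl (SE 0.19, adjusted P = 0.0398) and by 0.62 in cKO cells (SE 0.19, adjusted P = 0.0220) on the log2 scale. With genotype its Log2FC was -0.27 in early LPre-B (SE 0.19, adjusted P = 0.329) and -0.34 in sPre-B cells (SE 0.20, adjusted P = 0.208). The stage call in Ctrl cells was lost with any of the Ctrl libraries or either cKO early LPre-B library left out (adjusted P from 0.0559 to 0.243), and the value was -0.33 without Ctrl early LPre-B replicate 2. It was -0.34 (adjusted P = 0.372) without both Ctrl replicate 2 libraries. With all libraries kept, the call was also lost without the expression filter (adjusted P = 0.0623), with the likelihood-ratio test (adjusted P = 0.0601) and in a fit of the 4 Ctrl libraries alone (adjusted P = 0.0710). The stage call in cKO cells was lost without cKO early LPre-B replicate 1 (-0.54, adjusted P = 0.108) or cKO sPre-B replicate 1 (-0.53, adjusted P = 0.108). The T and NK markers, whose cells express *Id2*, summed to 4.76 and 4.75 CPM in Ctrl early LPre-B, 3.44 and 1.82 in cKO early LPre-B, 2.31 and 1.97 in Ctrl sPre-B and 2.15 and 2.33 in cKO sPre-B cells. Most of the first sum was *Klrb1c*, and *Cd3g* and *Ncr1* had 14 counts at most. The part of such cells in the *Id2* level was not tested.

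Message of the E protein genes outweighed that of the Id genes per length in every library. Summed per kilobase of exon, *Tcf3*, *Tcf12* and *Tcf4* had 262 ± 7.40 CPM per kilobase (SD, n = 2) in Ctrl early LPre-B and 314 ± 12.9 in Ctrl sPre-B cells, and 186 ± 2.53 and 244 ± 9.47 in cKO cells of these stages. *Id1*, *Id2* and *Id3* together had 29.9 ± 4.15 and 25.0 ± 3.19 CPM per kilobase in Ctrl and 18.8 ± 0.307 and 13.8 ± 1.32 in cKO cells. Both sums were thus lower in cKO cells. The ratio of Id to E message was 0.114 ± 0.0126 (SD, n = 2) in Ctrl and 0.101 ± 0.000280 in cKO early LPre-B cells, and 0.0795 ± 0.00689 in Ctrl and 0.0569 ± 0.00761 in cKO sPre-B cells. With the longest annotated transcript as the length, these ratios were 0.106, 0.0953, 0.0723 and 0.0510 in the same order. The ratio is a description of RNA levels and was not tested.

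*Ebf1* encodes the pioneer factor that specifies the B lineage (chromosome 11, 44617317 to 45008091, plus strand). It had 432 and 522 CPM in Ctrl early LPre-B, 345 and 351 in cKO early LPre-B, 780 and 915 in Ctrl sPre-B and 471 and 501 in cKO sPre-B cells. In cKO sPre-B cells it stood at the level of Ctrl early LPre-B cells, and these 2 groups overlapped. *Ebf1* was 1.74-fold lower in cKO than in Ctrl sPre-B cells (Log2FC = -0.80, SE 0.14, adjusted P = 0.00265). In early LPre-B cells it fell by 0.45 on the log2 scale (SE 0.14, adjusted P = 0.0350). It rose with stage by 0.83 in Ctrl (SE 0.14, adjusted P = 0.000835) and by 0.48 in cKO cells (SE 0.14, adjusted P = 0.0138). The call in early LPre-B cells depended on the libraries: the Log2FC was -0.26 without Ctrl early LPre-B replicate 2 (adjusted P = 0.229) and without both Ctrl replicate 2 libraries (adjusted P = 0.135), and the call was also lost without either cKO early LPre-B library (0.153 and 0.120) or either cKO sPre-B library (0.0564 and 0.0555) and in a fit of the 4 early LPre-B libraries alone (0.0589). The stage call in cKO cells was lost without either cKO early LPre-B library (0.0701 and 0.0575) or cKO sPre-B replicate 2 (0.0752).

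*Pax5*, the commitment factor, was the member that differed least between genotypes in early LPre-B cells (chromosome 4, 44524757 to 44710487, minus strand). Its level was 318 and 314 CPM in Ctrl early LPre-B, 269 and 276 in cKO early LPre-B, 514 and 583 in Ctrl sPre-B and 541 and 439 in cKO sPre-B cells. The sPre-B libraries of the 2 genotypes overlapped, and all of them were above the early LPre-B libraries. *Pax5* rose with stage 1.74-fold in Ctrl (Log2FC = 0.80, SE 0.13, adjusted P = 0.000732) and 1.80-fold in cKO cells (0.85, SE 0.13, adjusted P = 0.000488). The genotype values were -0.21 in early LPre-B (SE 0.13, adjusted P = 0.238) and -0.16 in sPre-B cells (SE 0.13, adjusted P = 0.359).

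*Foxo1* encodes the forkhead factor that PI3K signalling keeps out of the nucleus and that drives *Rag* expression when signalling wanes (chromosome 3, 52268336 to 52353221, plus strand). It had 231 and 234 CPM in Ctrl early LPre-B, 114 and 120 in cKO early LPre-B, 682 and 667 in Ctrl sPre-B and 533 and 503 in cKO sPre-B cells. No 2 groups overlapped, and replicates differed by little. *Foxo1* was 2.0-fold lower in cKO early LPre-B cells (Log2FC = -1.0, SE 0.10, adjusted P = 0.00023) and 1.30-fold lower in cKO sPre-B cells (-0.38, SE 0.10, adjusted P = 0.0175). It had the largest stage rise of the members, 2.90-fold in Ctrl (1.53, SE 0.10, adjusted P = 4.98e-06) and 4.45-fold in cKO cells (2.15, SE 0.10, adjusted P = 1.58e-06). The sPre-B genotype call was lost without cKO sPre-B replicate 1 (-0.42, adjusted P = 0.0650) or replicate 2 (-0.34, adjusted P = 0.101).

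*Bach2* encodes the repressor that holds back plasma cell genes and, with PAX5, guards the pre-BCR checkpoint (chromosome 4, 32238804 to 32586108, plus strand). Its level was 1197 and 1327 CPM in Ctrl early LPre-B, 661 and 730 in cKO early LPre-B, 2362 and 2678 in Ctrl sPre-B and 1731 and 1812 in cKO sPre-B cells. The 4 groups were apart from each other. *Bach2* rose 2.0-fold with stage in Ctrl cells (Log2FC = 1.0, SE 0.15, adjusted P = 0.000491) and rose 2.55-fold in cKO cells (1.35, SE 0.15, adjusted P = 8.7e-05). It fell with genotype by 0.86 in early LPre-B (SE 0.15, adjusted P = 0.00352) and by 0.51 in sPre-B cells (SE 0.15, adjusted P = 0.0292) on the log2 scale. The second call was lost without Ctrl sPre-B replicate 2 (-0.45, adjusted P = 0.0816), without cKO sPre-B replicate 1 (-0.47, adjusted P = 0.152) or replicate 2 (-0.54, adjusted P = 0.0941), and without both Ctrl replicate 2 libraries (-0.45, adjusted P = 0.0547).

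*Lef1*, an HMG-box factor that reads Wnt signals with beta-catenin and marks early B progenitors, was the member with the steepest fall (chromosome 3, 131110471 to 131224356, plus strand). It had 310 and 267 CPM in Ctrl early LPre-B, 130 and 153 in cKO early LPre-B, 58.7 and 59.0 in Ctrl sPre-B and 46.9 and 63.7 in cKO sPre-B cells. The early LPre-B groups were far apart, and the sPre-B groups overlapped. From early LPre- to sPre-B cells *Lef1* fell 4.91-fold in Ctrl (Log2FC = -2.29, SE 0.16, adjusted P = 6.29e-06) and 2.57-fold in cKO mice (-1.36, SE 0.15, adjusted P = 9.09e-05). In early LPre-B cells it was 2.03-fold lower in cKO than in Ctrl (-1.02, SE 0.15, adjusted P = 0.00167). In sPre-B cells the genotype value was -0.09 (SE 0.15, adjusted P = 0.693), and it was 0.12 (adjusted P = 0.632) without cKO sPre-B replicate 1.

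*Sox4*, a SoxC factor needed for early B cell development, ran opposite to *Lef1* with stage (chromosome 13, 28948919 to 28953713, minus strand). Its level was 299 and 297 CPM in Ctrl early LPre-B, 125 and 148 in cKO early LPre-B, 572 and 522 in Ctrl sPre-B and 284 and 404 in cKO sPre-B cells. The cKO sPre-B replicates were far apart and spanned the Ctrl early LPre-B level. *Sox4* was 2.18-fold lower in cKO early LPre-B cells, the largest genotype difference of the members at that stage (Log2FC = -1.12, SE 0.17, adjusted P = 0.00171). It was 1.59-fold lower in cKO sPre-B cells (-0.67, SE 0.17, adjusted P = 0.0147). With stage it rose by 0.88 in Ctrl (SE 0.17, adjusted P = 0.00186) and by 1.33 in cKO cells (SE 0.17, adjusted P = 0.000172). The sPre-B genotype value was -0.44 (adjusted P = 0.0907) without cKO sPre-B replicate 1 and -0.64 (adjusted P = 0.0507) without Ctrl sPre-B replicate 1.

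Whether the genotype difference itself changed with stage was tested as an interaction, in which 2.64% of all genes had a positive and 1.6% a negative value past the threshold. The 2 members called were *Lef1* (difference of Log2FC 0.94, SE 0.22, adjusted P = 0.0490) and *Foxo1* (0.62, SE 0.14, adjusted P = 0.0468), and both were less reduced by genotype at the sPre-B stage than before it. The values of the other 8 ran from -0.42 for *Id3* (SE 0.20, adjusted P = 0.260) and -0.35 for *Ebf1* (SE 0.19, adjusted P = 0.349) to 0.45 for *Sox4* (SE 0.24, adjusted P = 0.317). Both calls sat at the threshold. *Foxo1* lost it when any 1 of the 8 libraries was left out (0.52 to 0.66, adjusted P from 0.0821 to 0.184), and *Lef1* when any 1 but cKO sPre-B replicate 1 was left out (0.69 to 1.05, adjusted P from 0.0807 to 0.165). Without both Ctrl replicate 2 libraries the values were 0.50 (adjusted P = 0.188) and 0.96 (adjusted P = 0.193), and with median-ratio factors in place of TMM the adjusted P was 0.0554 and 0.0560.

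Levels of different genes can be compared only per length, here CPM per kilobase of merged exons. *Tcf3* was the most abundant member in all 4 groups, at 238 ± 9.62 (SD, n = 2) in Ctrl and 173 ± 1.52 in cKO early LPre-B cells, and 277 ± 14.2 in Ctrl and 225 ± 6.15 in cKO sPre-B cells. *Bach2* came next, at 127 ± 9.21, 70.0 ± 4.92, 253 ± 22.5 and 178 ± 5.79 in the same order, and in Ctrl sPre-B cells its libraries overlapped with those of *Tcf3*. *Id2* was last throughout, between 0.858 ± 0.0809 in cKO sPre-B and 1.58 ± 0.200 in Ctrl early LPre-B cells. In between, *Sox4*, *Ebf1*, *Pax5*, *Lef1*, *Id3*, *Foxo1* and *Tcf12* followed in this order in Ctrl early LPre-B cells, where *Lef1* overlapped with *Id3* and *Id3* with *Foxo1*. In Ctrl sPre-B cells *Foxo1* was in place 5, at 77.8 ± 1.23, and *Lef1* in place 9, at 6.69 ± 0.0277. In cKO sPre-B cells *Sox4*, *Foxo1*, *Pax5* and *Ebf1* overlapped each with the next. The places in the middle depend on the length used: with the longest annotated transcript, *Lef1* was in place 4 and *Tcf12* in place 6 in Ctrl early LPre-B cells, whereas *Tcf3*, *Bach2* and *Id2* had the same places in all 4 groups.

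**Figure D3:**
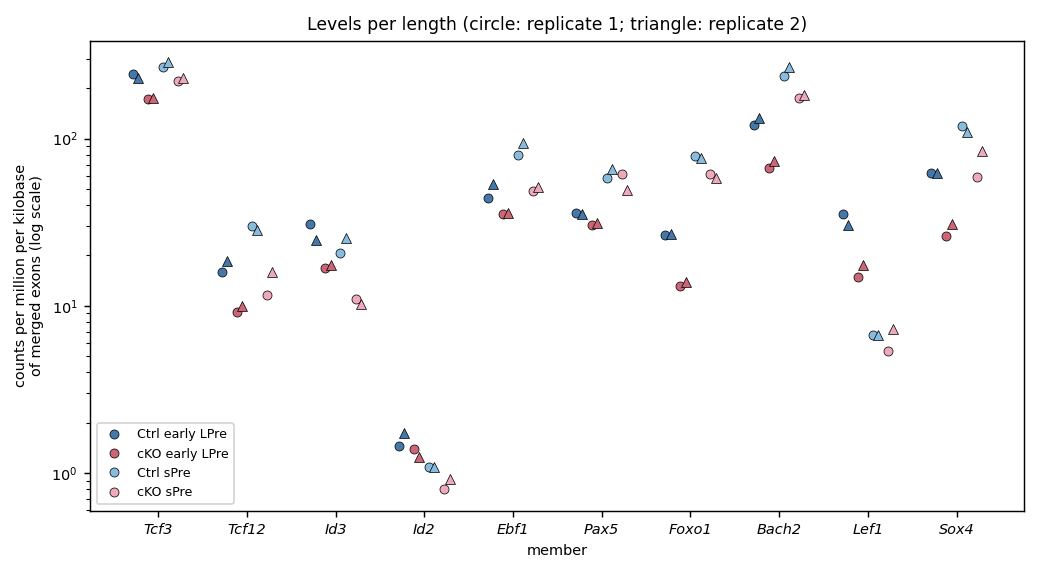
CPM per kilobase of merged exons (vertical log axis) of each member, with circles for replicate 1 and triangles for replicate 2 of the 4 groups. *Tcf3* and *Bach2* lie at the top, *Id2* lies at the bottom near 1, and *Lef1* drops between early LPre-B and sPre-B cells.

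Genes that these factors are known to regulate, and other genes of their families, were read from lists written with earlier results of these data in view, so they are no independent evidence. The counts of each list stand beside the shares of all genes tested. With stage, 29.1% were higher and 31.1% lower in Ctrl cells, and 31.6% and 31.1% in cKO cells. With genotype, 14.5% were higher and 16.9% lower in early LPre-B, and 19.8% and 14.9% in sPre-B cells. Of 16 genes that FOXO1 activates, 13 were higher and 0 lower with stage in Ctrl cells (median Log2FC 0.93, all genes 0.02), and 15 and 0 in cKO cells (1.52, all genes 0.05). They included *Rag1*, the recombinase (Log2FC = 3.03 in Ctrl and 4.71 in cKO cells), *S1pr1*, an egress receptor (3.40 and 4.07), *Klf2*, a quiescence factor (2.51 and 2.90), and *Irs2*, an insulin signalling adaptor (1.94 and 2.94). In cKO early LPre-B cells 10 of the 16 were lower and 0 higher (median -0.65). *Rag1* fell most, from 409 and 385 CPM in Ctrl to 44.0 and 74.9 CPM in cKO early LPre-B cells (-2.74, SE 0.25, adjusted P = 0.000148). *Trp53inp1* (-1.36), *Sesn3*, a sestrin that restrains mTORC1 (-1.15), and *S1pr1* (-1.12) followed. In sPre-B cells 7 were lower and 2 higher in cKO than in Ctrl (median -0.28). *Cited2* (-1.10), *Rag1* (-1.06) and *Sesn3* (-0.75) were among those that fell. The 7 were 4 without cKO sPre-B replicate 1, and the 2 were 0 without cKO sPre-B replicate 2 and 1 without any other sPre-B library.

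Of 16 genes that PAX5 and EBF1 activate, 14 were higher and 2 lower with stage in Ctrl cells and 13 and 2 in cKO cells. The 2 that fell were the surrogate light chain genes *Igll1* (Log2FC = -5.56 in Ctrl and -4.54 in cKO cells) and *Vpreb1* (-5.09 and -3.68), and *Ikzf3*, which encodes Aiolos (1.76 and 2.40), was among those that rose. In cKO early LPre-B cells 9 were lower and 1 higher (median -0.53), with *Vpreb3* (-0.91) and *Blnk*, a pre-BCR adaptor (-0.79), among the former and *Cd22* (0.81) the latter. In cKO sPre-B cells 5 were lower and 3 higher (median -0.19), such as the kinase gene *Blk* (-0.88) against *Vpreb1* (0.88) and *Bst1* (0.83). Of all genes tested, 16.9% were lower and 14.5% higher in early LPre-B, and 14.9% and 19.8% in sPre-B cells. The 3 higher genes were near the last share. *Cd79a* had the largest decrease at both stages (-1.77, adjusted P = 0.000157, and -2.08, adjusted P = 7.05e-05), but it is the locus that carries Cre in cKO mice. The counts rested in part on single libraries: the 9 became 5 without cKO early LPre-B replicate 1, the 5 became 3 without cKO sPre-B replicate 1, the 3 became 1 without Ctrl or cKO sPre-B replicate 2, and the 1 became 0 without Ctrl early LPre-B replicate 2 or cKO early LPre-B replicate 1.

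The genes PAX5 represses showed no common direction with genotype. Of 8 tested of 9 listed, 5 were higher and 1 lower with stage in Ctrl cells and 4 and 1 in cKO cells, of which the 4 were 2 without cKO early LPre-B replicate 2 or cKO sPre-B replicate 1 and the 1 was 2 without cKO sPre-B replicate 2. In cKO early LPre-B cells 2 were higher and 1 lower than in Ctrl, and in cKO sPre-B cells 0 and 1. These counts lay near the shares of all genes tested, 14.5% higher and 16.9% lower in early LPre-B, and 19.8% and 14.9% in sPre-B cells. *Flt3*, a progenitor receptor, was higher in early LPre-B cells (Log2FC = 1.01, adjusted P = 0.0315), at 3.15 and 2.75 CPM against 1.06 and 1.90 in Ctrl, and so was *Cd28*, a T cell costimulator gene (1.72, adjusted P = 0.0401). *Notch1*, a T-lineage receptor, was lower at both stages (-0.51, adjusted P = 0.0175, and -1.44, adjusted P = 0.000133). All 3 calls in early LPre-B cells were lost without cKO early LPre-B replicate 1 or replicate 2, and without either Ctrl early LPre-B library, or without both Ctrl replicate 2 libraries, 1 higher and 0 lower were called.

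Of 10 LEF1 and TCF feedback genes, 7 were tested, and 4 were lower and 2 higher with stage in Ctrl cells (1 higher without Ctrl early LPre-B replicate 1), and 3 and 2 in cKO cells. Against the direction of *Lef1*, *Rnf43* rose with stage in cKO cells (Log2FC = 2.05, adjusted P = 0.00269). *Ccnd1* rose with stage in Ctrl (0.67) and cKO cells (0.84). *Axin2*, the classic Wnt readout, fell with *Lef1*: it was 8.11 and 7.09 CPM in Ctrl early LPre-B, 2.72 and 4.15 in cKO early LPre-B, 1.24 and 1.45 in Ctrl sPre-B and 0.802 and 1.04 in cKO sPre-B cells. It was lower in cKO early LPre-B cells (Log2FC = -1.14, SE 0.25, adjusted P = 0.00895), as was the Wnt antagonist *Nkd1* (-2.28, SE 0.39, adjusted P = 0.00327), whereas *Znrf3* was higher (0.62, SE 0.19, adjusted P = 0.0343). The lower count in early LPre-B cells was 1 without Ctrl or cKO replicate 1 of that stage, and the higher count was 0 without any 1 of the 4 early LPre-B libraries. In cKO sPre-B cells 1 was higher, *Rnf43* (1.41, adjusted P = 0.0297), and 0 were lower. That call was lost without any sPre-B library but cKO replicate 1.

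Of 8 genes that BACH factors repress, 2 were higher and 3 lower with stage in Ctrl cells and 2 and 2 in cKO cells, where the 2 higher were 1 without replicate 2 of either stage. In cKO cells 2 were higher and 1 lower than in Ctrl at each stage. Of all genes tested, 29.1% were higher and 31.1% lower with stage in Ctrl cells, and 31.6% and 31.1% in cKO cells. With genotype, 14.5% were higher and 16.9% lower in early LPre-B, and 19.8% and 14.9% in sPre-B cells. The counts of these 8 genes lay near those shares. *Nqo1*, an oxidative stress enzyme gene, rose in early LPre-B (Log2FC = 1.73, SE 0.37, adjusted P = 0.00853) and sPre-B cells (2.91, SE 0.40, adjusted P = 0.000929), although its level was at most 0.863 CPM. *Cdkn1a*, which encodes the cell cycle inhibitor p21, rose in sPre-B cells (2.26, SE 0.15, adjusted P = 4.07e-05), from 4.54 and 3.50 CPM in Ctrl to 21.1 and 17.4 CPM in cKO cells. *Prdm1*, the plasma cell factor that BACH2 represses, was not called with genotype (-0.10 and -0.56), and it rose with stage together with *Bach2* (3.37 in Ctrl and 2.91 in cKO cells). In early LPre-B cells *Slc48a1*, a heme transporter gene, was the other higher gene (0.33, adjusted P = 0.0374), and the lower one was *Cdkn2a* (-2.28), which had under 50 counts in some library and was picked after its value was seen. In sPre-B cells *Slc48a1* was the lower gene (-0.32, adjusted P = 0.0386), and the lower count was 2 without either Ctrl early LPre-B library and 0 without any 1 of the other 6. In early LPre-B cells the 2 higher genes were 1 when Ctrl replicate 2 or either cKO library of that stage or either cKO sPre-B library was left out and 0 without both Ctrl replicate 2 libraries, and the 1 lower gene was 0 without Ctrl replicate 1 or cKO replicate 2 of that stage.

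Of 17 relatives of the members, 12 were tested. With stage 4 rose and 4 fell in Ctrl cells and 6 rose and 4 fell in cKO cells, and the latter 4 were 2 without cKO early LPre-B replicate 1 or cKO sPre-B replicate 2. In cKO early LPre-B cells 5 were lower and 0 higher than in Ctrl (median Log2FC -0.67). Among them were *Tcf7*, which encodes the LEF1 relative TCF1 (-1.09), *Tcf7l2* (-0.90), *Bach1* (-0.80) and the third E protein gene *Tcf4* (-0.64). In sPre-B cells 3 were lower and 2 higher in cKO than in Ctrl (median -0.42). *Bach1* (-0.53) and *Tcf4* (-0.48) fell again, and *Id1* (1.40, SE 0.32, adjusted P = 0.0105) and the SoxC gene *Sox12* (0.87, adjusted P = 0.0123) rose. *Id1* went against *Id3*, at 1.06 and 1.01 CPM in Ctrl and 3.43 and 2.07 CPM in cKO sPre-B cells. The 5 became 2 without Ctrl early LPre-B replicate 1 and 3 without either cKO early LPre-B library, the 3 became 0 without cKO sPre-B replicate 1, and the 2 became 0 without that library, without either Ctrl sPre-B library or without both Ctrl replicate 2 libraries.

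**Figure D4:**
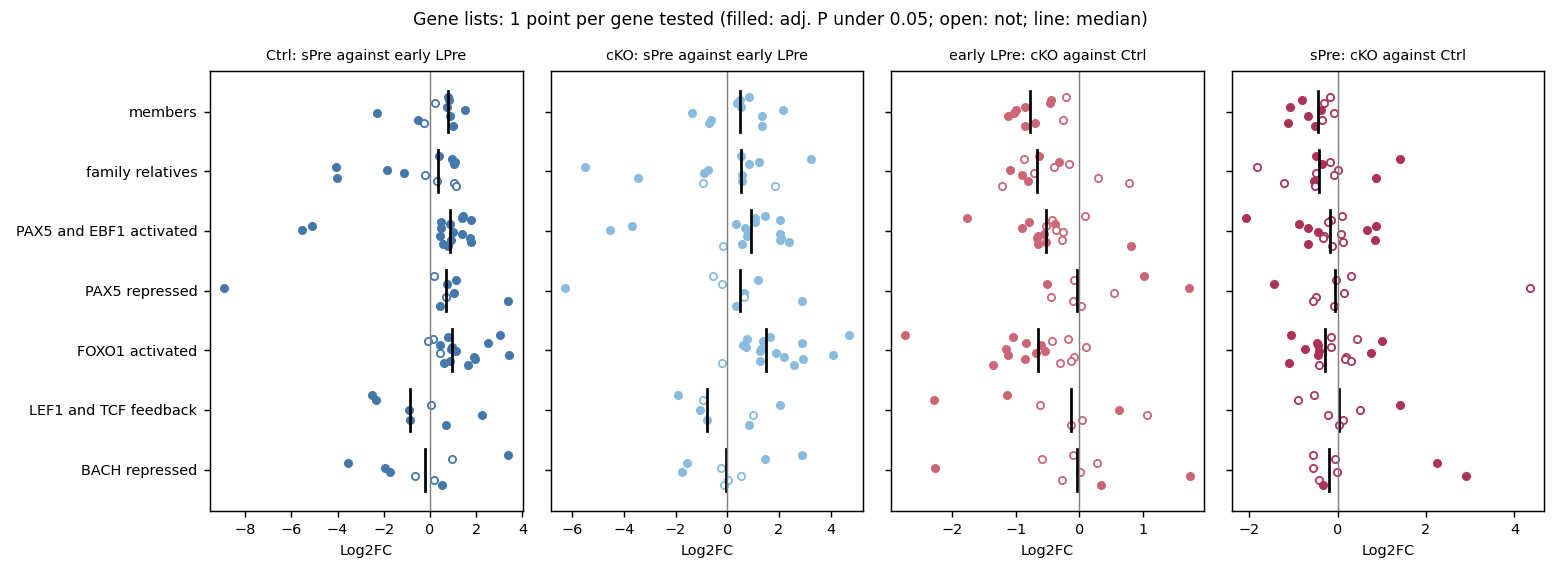
Log2FC (horizontal axes, with separate scales) of each tested gene of the lists (vertical axis) in the 4 comparisons, with filled points at adjusted P under 0.05 and a line at the list's median. The FOXO1 list lies to the right of 0 between stages (medians 0.93 and 1.52) and to the left between genotypes (-0.65 and -0.28), while the BACH and PAX5-repressed lists straddle 0 between genotypes.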

How the data were processed

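RNA of sorted cells was measured in 8 libraries, grouped by the genotype and cell type in their labels. Per the submitters' notes, the authors used Trim Galore for trimming, HISAT2 for alignment to mm10 and featureCounts for counting. The deposited values are these raw counts, unstranded and without normalization. Entrez identifiers were matched to RefSeq symbols for 25275 genes, and 1904 were left without a name.

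The analysis used edgeR 4.0.16 (R 4.3.3). Library sizes were scaled by TMM (factors from 0.862 to 1.09), filterByExpr left 17700 genes, and 1 mean per group was fitted to all 8 libraries (biological coefficient of variation 0.174). Each contrast was given a quasi-likelihood F test, two-sided, and P was adjusted by the method of Benjamini and Hochberg over the 17700 genes, with a threshold of 0.05. The SE of a Log2FC was its size divided by the root of F. The procedure was tested on simulated data. Lengths and positions came from GENCODE M21 (merged exons), and promoter sequences from RefSeq (GRCm38.p6), with 1 window for each member.

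The members and gene lists were chosen with earlier results of these data known. All members are named, and from each other list up to 4 genes per comparison, those called with the largest Log2FC whose higher group had 50 counts or more in both libraries. Not every gene that meets this rule is reported here. Alternatives were median-ratio factors, no expression filter, the likelihood-ratio test, DESeq2 1.42.0, replicate blocks, a fit of the 4 libraries compared, no immunoglobulin genes, an absolute Log2FC of at least 2, and libraries left out. The longest transcript as a length was added after seeing the data. Where 1 library of a group was left out, the remaining one was assumed to vary like the other groups.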

Additional observations from a re-analysis of the deposited data

Results flagged for a closer look

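2 members differed between stages in their response to genotype, by the interaction term of edgeR's quasi-likelihood test. The Log2FC of *Foxo1* for cKO against Ctrl was higher by 0.62 at the sPre-B stage than at the early LPre-B stage (SE 0.14, adjusted P = 0.0468), and that of *Lef1* by 0.94 (SE 0.22, adjusted P = 0.0490). In both genes the 2 cKO libraries lay below the 2 Ctrl libraries in early LPre-B cells, while in sPre-B cells this held for *Foxo1* and not for *Lef1*. With DESeq2, the likelihood-ratio test and both replicate blocks the calls were the same, and with median-ratio factors neither was called. The *Foxo1* call was lost when any 1 of the 8 libraries was left out and the *Lef1* call with any 1 but cKO sPre-B replicate 1, and both were lost without both Ctrl replicate 2 libraries (adjusted P = 0.188 and 0.193).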

How the results depend on the processing

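Of 820 member values from 50 results under 17 alternatives, 750 had the same direction and call, 60 lost the call, 3 gained it and 7 turned direction. The 7 were in values that were not called and came from leaving out 1 library: the *Pax5* interaction then ran from -0.12 to 0.19, the *Id2* interaction from -0.30 to 0.011 and the *Lef1* genotype value in sPre-B cells from -0.33 to 0.12. In Ctrl cells the number of members lower with stage was 1 in place of 2 without the expression filter, with the likelihood-ratio test, in the fit of 4 libraries and at an absolute Log2FC of at least 2, and 1 to 2 with a library left out. In cKO cells 4 to 7 members were higher with stage with a library left out. In sPre-B cells 3 to 6 members were lower in cKO cells with a library left out, with 3 without cKO replicate 1, and 7 with DESeq2. The number with an interaction was 0 with median-ratio factors, 0 without both Ctrl replicate 2 libraries, and 0 to 1 with a library left out. At an absolute Log2FC of at least 2, the numbers were 0 higher with stage in Ctrl, 1 higher and 0 lower with stage in cKO, 0 lower with genotype in early LPre-B, 0 in sPre-B cells, and 0 for the interaction.

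Replicate numbers were shared by the groups, but nothing says that they mark an animal or a day. Same-numbered libraries deviated together across genes at 0.395 between the Ctrl stages, 0.254 between the cKO stages, 0.155 between genotypes in early LPre-B and 0.0858 in sPre-B cells. With the replicate number as a block, 6 members were higher and 2 lower with stage in Ctrl, 7 and 3 in cKO cells, 8 and 6 lower with genotype in early LPre-B and sPre-B cells, and 2 had an interaction, the numbers without the block. The block changed the call of 0 members.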
